A study of Homo sapiens with 7 samples.

Results

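Nuclear genes for the mitochondrial ribosome, the respiratory chain and the mitochondrial import machinery are described here, as they appear among regions of chromatin that changed accessibility after PHF19 knockdown. Members were chosen by gene symbol: those beginning MRPL or MRPS and a digit, NDUF, COX and a digit, ATP5, UQCR, TIMM or TOMM, and SDHA to SDHD. The pattern took 82 of the 8815 regions in the authors' deposited tables, 80 increased and 2 decreased, whose nearest genes are 63 of the 211 nuclear protein-coding genes that match it. The assay was ATAC-seq, which reads where a transposase can cut chromatin, in Kasumi-1, an established acute myeloid leukaemia line with the RUNX1-RUNX1T1 fusion. Control cells carried a scrambled shRNA (4 libraries, although the treatment label of these samples reads WT) and knockdown cells an shRNA against PHF19, a Polycomb repressive complex 2 partner (3 libraries). Both groups were given puromycin at 2 µg/ml from 48 hours on, for at least 24 hours, and 10000 cells went into each library. Neither the number of shRNA sequences nor the origin of replicate libraries (separate or shared cultures) is in the labels, so the spread behind the authors' statistics may be technical.

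Mitochondria make ATP by passing electrons from NADH and succinate through complexes I to IV, and complex V uses the resulting proton gradient. A few membrane subunits are encoded in mitochondrial DNA and made on the mitochondrial ribosome, whose proteins are all nuclear products. The TOM complex of the outer membrane and the TIM complexes of the inner membrane bring those products in. Many promoters of these genes are textbook targets of the transcription factors NRF1 and GABPA, and acute myeloid leukaemia cells are known for a strong reliance on oxidative phosphorylation.

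All means, folds and false discovery rates (FDR) of single regions below come from the authors' deposited table, are the authors' own, and have no SD or n. A mean is the authors' mean normalised read count of a group, a fold is the authors' shrunken log2 fold of knockdown over control, which is closer to 0 than the log2 ratio of the 2 printed means, the more so at few reads, and the deposited coordinates were read as hg19. No value per library was used here, so overlap between libraries of the groups cannot be given, and the depth of each library is unknown. Regions that the authors tested and did not list were not analysed here, so a gene without a listed region is not shown to be unchanged.

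The promoter with the largest listed fold in each class is printed first, because most changed regions of these genes lie over the transcription start. For complex V it is ATP5MC2, the only listed gene with an entry, and for MRPS30 it is the main start, which lies under the smaller of its promoter folds. They are the 200 bases just upstream of the start, 5′ to 3′, from RefSeq on GRCh38.p14, where 182 of the 211 members have an entry. Capitals mark matches, on either strand, to the letters GCGCATGC (NRF1), CCGGAAG (ETS factors such as GABPA), AAGATGG (YY1), GGGCGG (SP1) or CCAAT.
MRPL41: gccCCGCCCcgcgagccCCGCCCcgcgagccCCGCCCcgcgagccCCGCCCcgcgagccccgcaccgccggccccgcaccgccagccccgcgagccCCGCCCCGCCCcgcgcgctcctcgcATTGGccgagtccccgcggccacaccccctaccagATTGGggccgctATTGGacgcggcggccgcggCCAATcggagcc
MRPS30: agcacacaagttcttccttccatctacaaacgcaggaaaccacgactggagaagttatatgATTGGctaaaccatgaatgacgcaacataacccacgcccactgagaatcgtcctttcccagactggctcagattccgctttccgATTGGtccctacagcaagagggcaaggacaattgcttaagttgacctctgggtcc
NDUFB6: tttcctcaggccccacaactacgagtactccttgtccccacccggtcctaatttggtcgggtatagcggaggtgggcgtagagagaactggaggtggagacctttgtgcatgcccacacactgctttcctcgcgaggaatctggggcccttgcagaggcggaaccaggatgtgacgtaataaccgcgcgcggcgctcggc
UQCRFS1: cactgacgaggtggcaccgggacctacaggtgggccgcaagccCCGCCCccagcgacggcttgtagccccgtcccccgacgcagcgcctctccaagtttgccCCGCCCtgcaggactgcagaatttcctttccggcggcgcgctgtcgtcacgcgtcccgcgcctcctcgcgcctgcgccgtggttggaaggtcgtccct
COX7A2: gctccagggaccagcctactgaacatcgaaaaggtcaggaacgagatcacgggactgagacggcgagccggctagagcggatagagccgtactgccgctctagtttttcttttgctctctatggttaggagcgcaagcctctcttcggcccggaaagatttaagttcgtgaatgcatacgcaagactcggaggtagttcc
ATP5MC2: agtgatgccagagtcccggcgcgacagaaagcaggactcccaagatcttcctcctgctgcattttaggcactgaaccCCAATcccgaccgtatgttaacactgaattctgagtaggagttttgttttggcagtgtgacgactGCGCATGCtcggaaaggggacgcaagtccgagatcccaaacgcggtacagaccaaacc
TIMM21: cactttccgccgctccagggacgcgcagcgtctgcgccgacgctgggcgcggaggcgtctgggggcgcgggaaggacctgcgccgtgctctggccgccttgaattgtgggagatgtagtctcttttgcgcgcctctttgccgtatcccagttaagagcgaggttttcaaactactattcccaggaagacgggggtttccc
TOMM20: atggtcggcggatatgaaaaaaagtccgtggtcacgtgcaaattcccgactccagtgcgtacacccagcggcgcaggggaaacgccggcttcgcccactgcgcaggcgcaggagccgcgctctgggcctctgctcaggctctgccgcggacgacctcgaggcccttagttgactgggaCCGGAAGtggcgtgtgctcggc

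The 8 sequences differ in the letters they hold. The MRPL41 stretch, 84% G and C, has 6 SP1 matches, of which the nearest pair shares a base, and 4 CCAAT matches. ATP5MC2 holds the NRF1 letters 58 to 51 bases before the start, and TOMM20 holds the ETS letters 22 to 16 bases before it. MRPS30 has 2 CCAAT matches and UQCRFS1 2 SP1 matches. NDUFB6, COX7A2 and TIMM21 hold none of these letters in this window, which says nothing about any factor there. COX7A2 has 2 starts and ATP5MC2 3 starts in the table. The one printed is that whose distance to the gene's end is nearest the deposited transcript length.

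An increased region was listed for 61 of the 211 genes (28.9%), where 25.3% of all protein-coding genes had one. At promoters, within 3 kb of a start, 56 genes (26.5%) had one, beside 17.5% of all protein-coding genes. With a log2 fold of at least 1 required, 23 members (10.9%) had an increased region, beside 11.3%, so the first difference turns. These differences are descriptions with no test, and the number of tested regions near each gene is unknown. Decreased regions were listed for 2 of the 211, where the share over all genes was 0.818%. Of all 52675 regions the authors tested, 16.4% were increased and 0.38% decreased. 

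The classes ranged from 0 of 4 genes in complex II to 17 of 47 (36.2%) in complex I. Large mitoribosomal subunit genes stood at 17 of 49 (34.7%), TIM genes at 5 of 15 (33.3%) and complex IV genes at 9 of 28 (32.1%). Lower shares were seen for small mitoribosomal subunit genes (7 of 29, 24.1%), complex III (2 of 9, 22.2%), TOM (2 of 10, 20%) and complex V (2 of 20, 10%). With so few genes in most classes, 1 gene moves a share by several percentage points, and the order of the classes was not tested. Pooled, the mitochondrial ribosome had 24 of 78 genes (30.8%), the respiratory chain 30 of 108 (27.8%) and import 7 of 25 (28%).

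**Figure D1:**
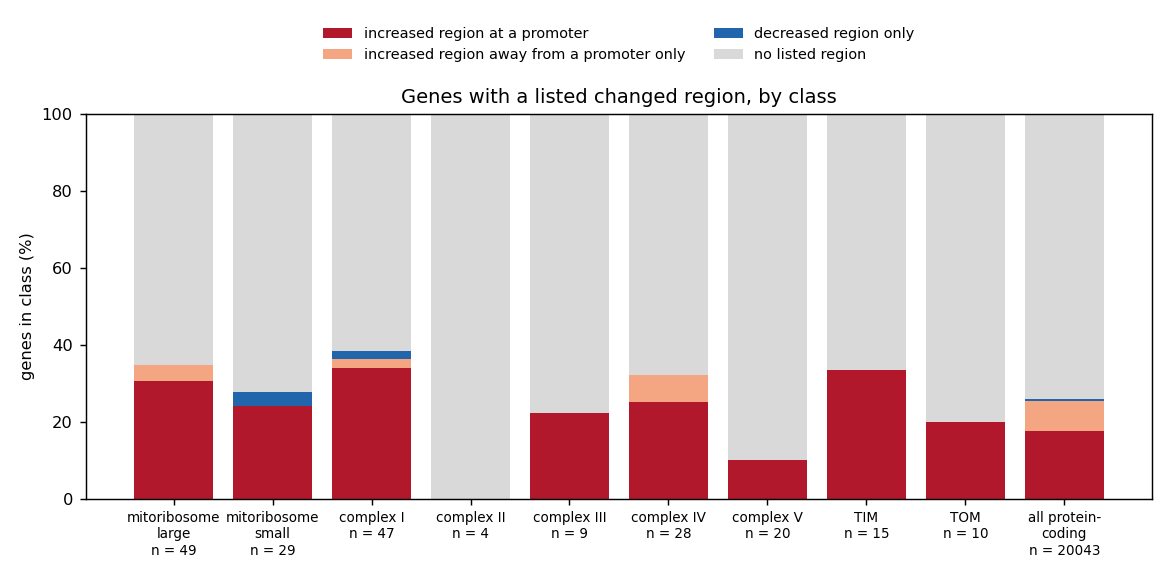
Share of the genes of each class (y axis, percent; n is the number of genes) with an increased region at a promoter, with increased regions only elsewhere, with a decreased region only, or with no listed region; the last bar is all protein-coding genes. Most genes with an increased region have one at a promoter in every class that has any, complex II has none, and complex V has 2 of 20 genes.

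Folds of these genes were of the size usual among increased regions. Their median log2 fold was 0.94 (quartiles 0.81 and 1.06), beside 0.97 (0.84 and 1.12) over all 8615 increased regions. The 60 promoter regions had a median of 0.89, as did all 4318 increased promoter regions, and the 20 other regions had 1.04, beside 1.02. Promoter regions made up 75% of the increased regions of these genes and 50.1% of all increased regions. This is not particular to them, since the share was 90.5% for cytosolic ribosomal protein genes and 91.7% for proteasome genes. The latter were taken by symbol, PSMA to PSMG and a digit, and not all of them encode subunits. Listed member folds ran from 0.65 at MRPL48 to 1.44 at NDUFS4, while the smallest fold among all increased regions was 0.59. Of the 80 regions, 42 (52.5%) had an FDR of 0.01 or less, beside 45.9% of all increased regions.

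**Figure D2:**
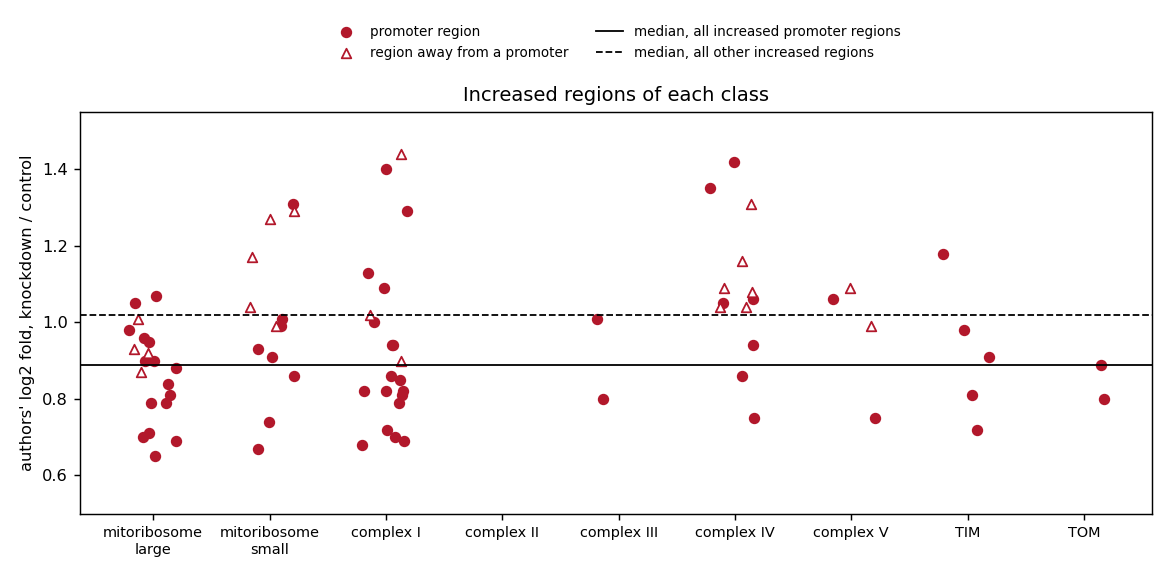
Authors' log2 fold of each increased region (y axis) by class (x axis); filled circles are promoter regions, open triangles other regions, and the lines are medians over all increased promoter regions (0.89) and all other increased regions (1.02). At promoters the median is higher for complex IV than for the large mitoribosomal subunit (1.05 and 0.86), though their points overlap (0.75 to 1.42 and 0.65 to 1.07). Complex II has no point.

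Among large mitoribosomal subunit genes the promoter of MRPL41 had the largest shrunken fold. Its region, chr9:140445857-140446495, covers the start, with means of 35 knockdown and 14.5 control reads (log2 fold 1.07, FDR 0.00201). MRPL3, which encodes a protein near the catalytic centre of the subunit, followed with 15.6 and 4.71 reads (1.05, FDR 0.0192), and by the unshrunken log2 difference of means it stood above MRPL41 (1.72 and 1.27). That region lies 1418 bp upstream of the start, so it is a promoter by distance only. MRPL44, a protein with a ribonuclease III-like fold, had 37.3 and 16.4 reads (0.98, FDR 0.00438) at chr2:224821877-224822277. The other promoter regions of the class had folds down to 0.65, and 2 of its 16 promoter regions reached a log2 fold of 1. That lowest fold was at MRPL48, with 43.5 and 25.4 reads (FDR 0.0489), just inside the FDR limit. Read levels varied more than folds: MRPL17 had 94.6 and 46.8 reads (0.90, FDR 0.000742) and MRPL50 82.4 and 40.2 (0.90, FDR 0.00115), while MRPL51 had 22.9 and 10.2 (0.84, FDR 0.0384). MRPL24 (0.88), MRPL34 (0.96), MRPL46 and MRPL55 (0.79 each), MRPL36 (0.71), MRPL54 (0.70) and MRPL30 (0.69) had 1 promoter region each. MRPL36 had another increased region 6.02 kb into intergenic sequence (0.87). MRPL39 had 2 promoter regions, 1 over the start (0.81) and 1 lying 789 bp upstream (0.95).

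MRPS30 had 5 increased regions, the most of any member. The classes follow the symbols, and structures place this protein and MRPS18A in the large subunit, while MRPS36 belongs to another enzyme. Counted by those places, the small subunit had 6 of 26 genes with an increased region (23.1%) and the large one 18 of 51 (35.3%), an alternative added after its values were seen. The region over its main start, chr5:44808740-44809140, had the highest knockdown mean of all member regions, 133 reads, and 69.5 in the control (log2 fold 0.86, FDR 0.000285). A second region over a start of a shorter deposited transcript rose further, with 23.5 and 7.11 reads (1.31, FDR 0.00108). The remaining MRPS30 regions lie in intergenic sequence 34.3 kb upstream (1.29), 142 kb downstream (1.27) and 229 kb downstream (1.04) of a start, where the nearest gene is only a label. MRPS33 (75.4 and 34.7 reads, log2 fold 0.99, FDR 0.000455) and MRPS17 (41.5 and 18 reads, 1.01, FDR 0.00199) also rose at their starts. Both lie on chromosome 7. MRPS9 had 89.6 and 43.5 reads (0.93, FDR 0.000309) and MRPS6 35.3 and 16.7 (0.91, FDR 0.00818). MRPS28 had 80.9 and 45.1 reads at its start (0.74, FDR 0.00938) and a region in its own intron 1, 6.28 kb away, with 10.3 and 2.26 (1.17, FDR 0.0129). MRPS18B had the smallest fold of the class, 0.67, on means of 98.8 and 58.4 reads.

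Complex I, the entry point for electrons from NADH, had 18 promoter regions at 16 genes. NDUFB6, an accessory subunit of the membrane arm, had 47.8 knockdown and 14.9 control reads at its start, chr9:32573015-32573415 (log2 fold 1.40, FDR 2.27e-05). It had 3 further increased regions, 539 bp downstream (0.82), 8.36 kb upstream (0.90) and 23.3 kb upstream (1.02), each with a control mean under 10 reads. NDUFA5, an accessory subunit of the matrix arm, had 79.4 and 28.6 reads (1.29, FDR 9.22e-06) at chr7:123197744-123198431. NDUFS7, a core subunit that holds the iron-sulfur cluster next to ubiquinone, had 65.3 and 26.6 reads (1.13, FDR 9.57e-05) at chr19:1383439-1383839. These 3 promoters had the largest shrunken folds of the class at promoters.

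Assembly factors and other accessory subunits of complex I rose too. Of 9 assembly factors, NDUFAF3 (largest fold 1.09), NDUFAF4 (0.94) and TIMMDC1 (0.70) had promoter regions, TIMMDC1 being a complex I assembly factor despite its symbol. Accessory subunits of the membrane arm with smaller promoter folds were NDUFB5 (69.5 and 31.6 reads, 1.0, FDR 0.00065), NDUFB2 (0.86), NDUFA1 (0.85) and NDUFB11 (0.69). In the matrix arm these were NDUFV3 (86.2 and 45.9 reads, 0.81, FDR 0.00296), NDUFS6 (0.79) and NDUFA7 (50.1 and 28.9 reads, 0.68, FDR 0.0272), the smallest of the class. NDUFA10 (0.94) and the acyl carrier protein NDUFAB1 (0.72) also rose at their starts. NDUFS4, an accessory subunit whose loss causes Leigh syndrome, had no listed promoter region. Its single region, intergenic and 170 kb from the start at chr5:53026784-53027184, had 24.7 and 6.55 reads and the largest shrunken log2 fold of all members, 1.44 (FDR 0.000336). Its unshrunken difference, 1.92, was below those of 6 other distal regions with fewer reads, led by that of COX18 (2.42).

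Complex II, which oxidises succinate, had no listed region at SDHA, SDHB, SDHC or SDHD. Complex III passes electrons to cytochrome c, and 2 of its 9 genes rose, both at the start. UQCRFS1, the Rieske iron-sulfur protein, had 43.5 and 19 reads (log2 fold 1.01, FDR 0.00178), and UQCRB, a ubiquinone-binding subunit, had 40.6 and 20.2 (0.80, FDR 0.0218). UQCRC1, UQCRC2, UQCRH, UQCRHL, UQCRQ, UQCR10 and UQCR11 had none listed.

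Complex IV, cytochrome c oxidase, had the highest median shrunken promoter fold among classes with at least 5 promoter regions, 1.05 over 7 regions. COX7A2, the broadly expressed isoform of subunit 7A, had 58.4 knockdown and 18.4 control reads at chr6:75953399-75953799. Its log2 fold of 1.42 (FDR 4.39e-06) was the largest shrunken fold of all member promoters. Its unshrunken log2 difference, 1.66, came after those of MRPL3 and MRPS30 (1.72 each), COX7C (1.70) and NDUFB6 (1.68). COX7C, a small structural subunit, had 30.4 and 9.37 reads (1.35, FDR 0.000374). COX20, a chaperone for the mitochondrially encoded subunit 2, had 57.9 and 23.8 (1.06, FDR 0.00117). COX7B (19.6 and 7.01 reads, 1.05, FDR 0.0127), the insertase gene COX18 (67.7 and 31.8, 0.94, FDR 0.00105) and COX5A (60.8 and 33.8, 0.75, FDR 0.00925) rose at their starts too. COX18 and COX20 each had an intergenic region besides, 183 kb (1.04) and 19.4 kb (1.08) away, with control means of 1.4 and 1.77 reads. Of the 13 increased regions of the class, 10 reached a log2 fold of 1, beside 43.4% of all increased regions. At promoters these were 4 of 7, beside 30.8% of all increased promoter regions. NDUFA4, long named as a complex I protein but found in complex IV, had 52.6 and 26.1 reads 67 bp upstream of its start (0.86) and 2 intergenic regions, 50.5 kb (1.31) and 584 kb (1.16) away.

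The isoform genes COX4I2 and COX7B2 were listed without a promoter region. The region assigned to COX4I2, the lung isoform of subunit 4, lies 37.1 kb away in intron 1 of BCL2L1, an anti-apoptotic gene, with 43.5 and 17.3 reads (log2 fold 1.09, FDR 0.000944). COX7B2, a testis isoform, had a region in its own intron 2, 136 kb from the start, with 9.56 and 2.27 reads (1.04, FDR 0.0276). The isoform genes COX6A2, COX6B2, COX7A1, COX8C and NDUFA4L2 had no listed region, nor had the widely expressed COX4I1, COX5B, COX6A1, COX6B1, COX6C and COX8A.

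Complex V, the ATP synthase, was listed at only 2 of 20 genes, and both encode subunit c of the rotor ring. ATP5MC2 had 73.4 and 40.9 reads over its start (log2 fold 0.75, FDR 0.0055). ATP5MC3 had 15 and 5.16 reads in a region 408 bp downstream of its start (1.06, FDR 0.0152), and intergenic regions 21.9 kb (1.09) and 192 kb (0.99) upstream. The third subunit c gene, ATP5MC1, and the genes ATP5F1A to ATP5F1E had no listed region.

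**Figure D3:**
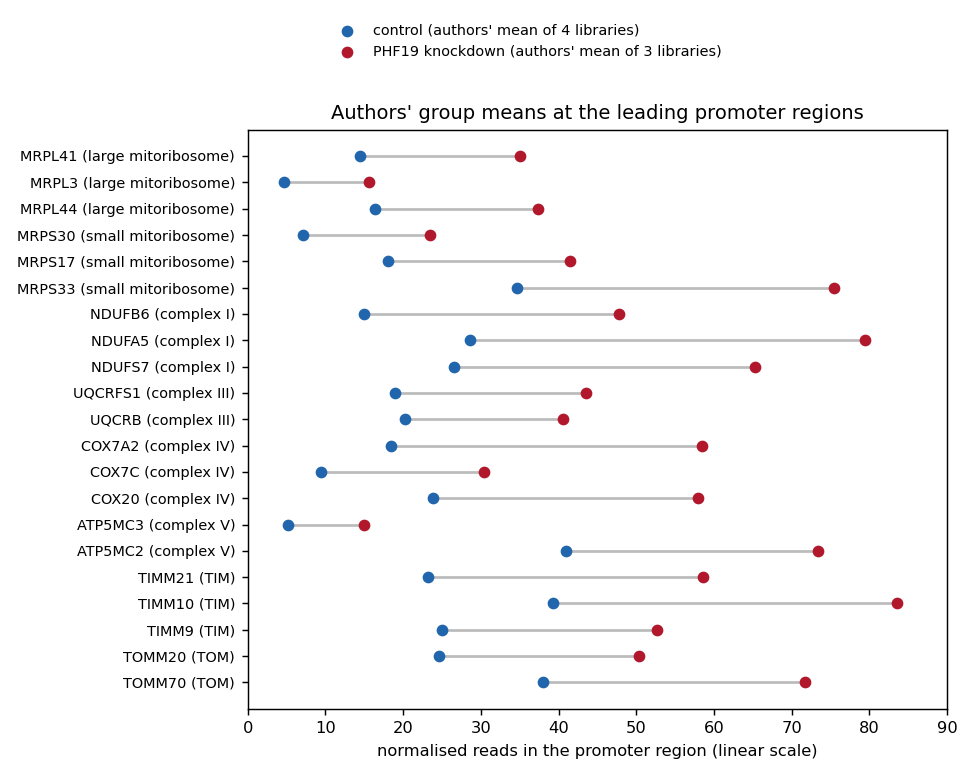
Authors' mean normalised reads (x axis, linear) in the control (blue) and the knockdown (red) at the listed promoter region with the largest fold, for up to 3 genes per class; single libraries are not shown. Control means lie between 4.71 reads at MRPL3 and 40.9 at ATP5MC2, and knockdown means between 15 at ATP5MC3 and 83.6 at TIMM10.

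The import genes had increased regions at 7 of 25 members, all at promoters and all over a start. TIMM21, which joins the TIM23 translocase to the respiratory chain, had 58.6 and 23.2 reads (log2 fold 1.18, FDR 5.24e-05) at chr18:71815463-71815863. TIMM10 and TIMM9 form the chaperone of the intermembrane space that carries hydrophobic precursors, and both rose: 83.6 and 39.3 reads at TIMM10 (0.98, FDR 0.000247), 52.7 and 25 at TIMM9 (0.91, FDR 0.00355). TIMM13 (0.81) and TIMM8A (0.72), which form a related chaperone, rose as well. At the outer membrane the presequence receptor TOMM20 had 50.3 and 24.6 reads (0.89, FDR 0.00423). The receptor for carrier precursors, TOMM70, had 71.7 and 38 (0.80, FDR 0.00408). The channel genes TOMM40 and TIMM23, the central receptor gene TOMM22 and the small TOM genes TOMM5, TOMM6 and TOMM7 had no listed region.

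The 2 decreased regions rest on few reads and neither is at a promoter. The one assigned to MRPS18A lies 17.5 kb from its start, in intron 4 of RSPH9, a cilia gene, with 2 knockdown and 9.24 control reads (log2 fold −0.99, FDR 0.0361). The one assigned to NDUFA12, chr12:95318017-95318417, is intergenic, 79.1 kb away, with the knockdown mean at the deposited floor of 1 read and 4.8 reads in the control (−1.0, FDR 0.0112). Neither gene had an increased region.

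Increased promoter regions of these genes mostly sat over the start. Of the 60, 52 (86.7%) covered a deposited start, beside 69.1% of all increased promoter regions. The share was 89.5% for cytosolic ribosomal protein genes and 90.9% for proteasome genes. Within the members, the large mitoribosomal subunit had 68.8%. The 52 reached a median of 231 bp upstream and 190 bp downstream, 42 of them being 401 bp wide, the usual width in the deposited tables. In all, 51 genes had 1 listed region, 8 had 2, and NDUFA4, ATP5MC3, NDUFB6 and MRPS30 had 3 or more.

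**Figure D4:**
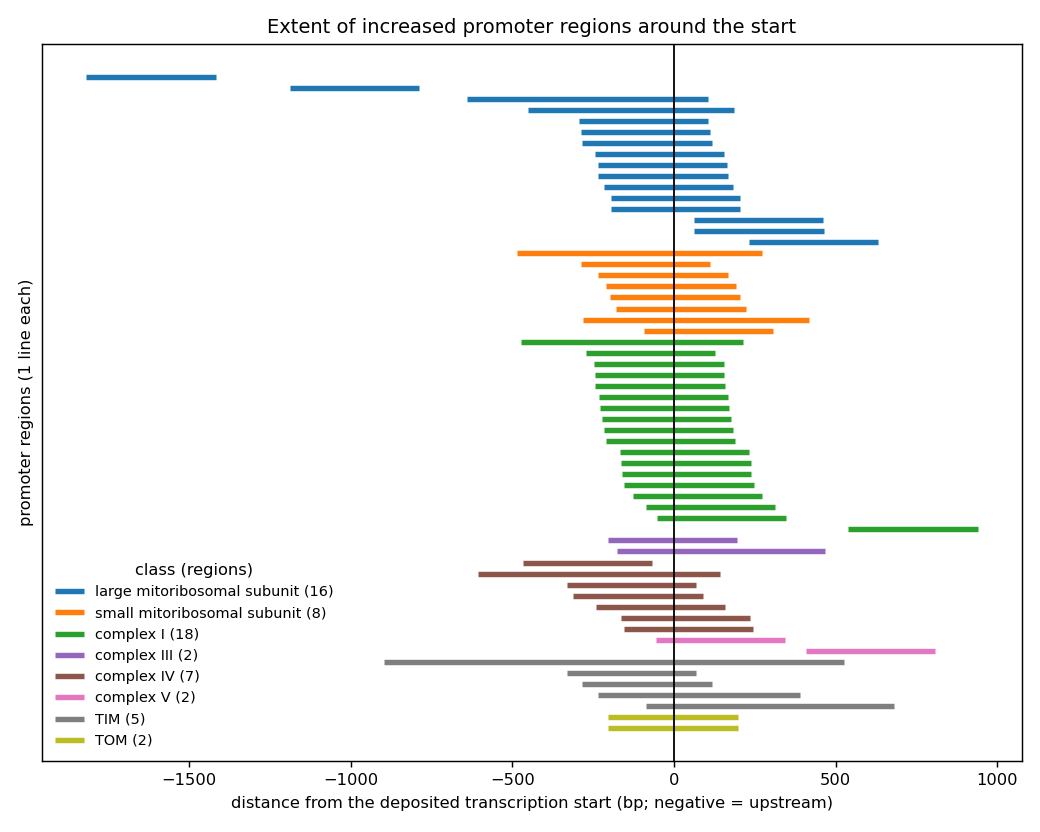
Each line is 1 increased promoter region, drawn from its upstream to its downstream end relative to the deposited start (x axis, bp), coloured by class. Of the lines, 52 span 0, while those of MRPL3, MRPL39 (1 of 2) and NDUFA4 lie wholly upstream and those of ATP5MC3, NDUFB6 (1 of 2), MRPL34, MRPL48 and MRPL54 wholly downstream.

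Listed folds tended to be larger where reads were few. Promoter regions of these genes had a median of 36.2 reads over all libraries, and their other regions 8.31 reads, with 13 of those 20 under 10 reads. All increased promoter regions were cut at the quartiles of reads. The set with the fewest reads (3.03 to 21.3) had a median fold of 0.99 and no fold under 0.72, and the set with the most (48.5 to 199) had 0.82 and none under 0.59. Member regions numbered 14 and 17 in those sets and had medians of 0.96 and 0.82. The part of read level in the differences between classes was not tested.

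**Figure D5:**
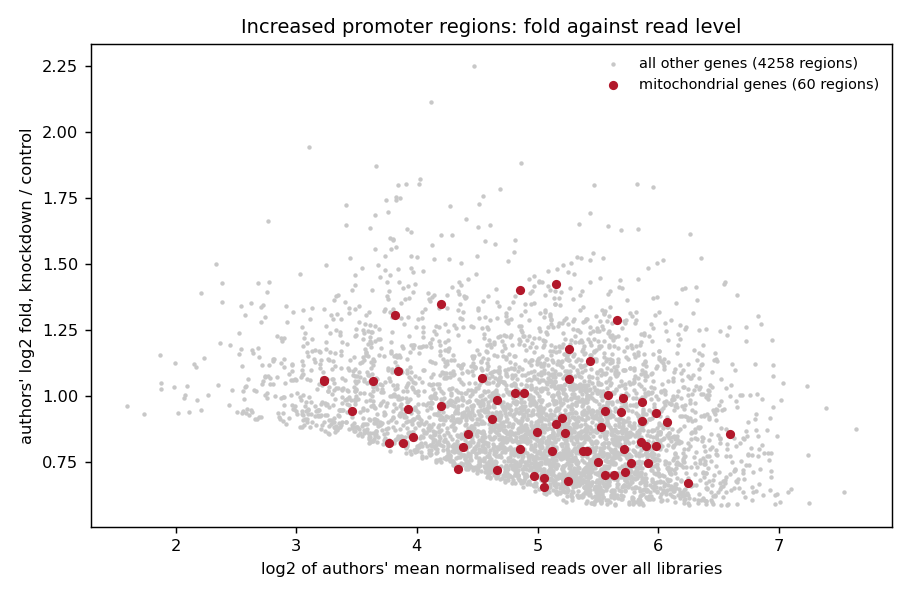
Authors' log2 fold (y axis) against the log2 of the authors' mean reads over all libraries (x axis) for increased promoter regions, with the 60 regions of the mitochondrial genes in red and the others in grey. Red points lie within the grey cloud, whose lower edge falls as reads increase.

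Many of these genes share a promoter with a neighbour. Of the 182 members with a promoter entry, 72 (39.6%) start within 1 kb of a gene on the opposite strand, head to head, beside 22.1% of all protein-coding genes with an entry. The deposited annotation names 1 nearest gene per region, so a shared promoter is counted for 1 of the pair. Of the 51 members with an entry and an increased promoter region, 19 (37.3%, beside 30.1% of all such protein-coding genes) are themselves head to head. Their regions were counted for the member, although which gene of the pair each belongs to cannot be told. Of the 131 members without an increased promoter region of their own, 15 (11.5%, beside 3.43% of all such protein-coding genes) had a head-to-head neighbour with one. ATP5PF, a stalk subunit of complex V, is paired with GABPA, itself a regulator of respiratory genes, whose promoter had 63.1 and 23.6 reads (log2 fold 1.21, FDR 0.000105). SDHA is paired with CCDC127 (0.72), UQCRH with LRRC41 (1.09), NDUFS1 with EEF1B2 (1.08), MRPS12 with SARS2 (0.72) and MRPL18 with the chaperonin gene TCP1 (0.80). MRPS11 and MRPL46 are a pair of members that share 1 region, listed under MRPL46 (0.79). Counted with such neighbours, 75 of the 211 members (35.5%) had an increased region, beside 27.3% of all protein-coding genes. That count was an alternative added once the data had been seen.

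The motif letters were searched in all promoter entries. The ETS letters stood in 27.1% of the 221 member promoters and 9.62% of the 22199 protein-coding ones, the NRF1 letters in 10.9% and 3.03%, and the YY1 letters in 5.43% and 2.54%. SP1 letters (52.9% and 50.9%) and CCAAT (28.1% and 28.9%) were about as frequent in both. Within the members, promoters of genes with an increased promoter region held the ETS letters in 13 of 66 (19.7%) and the NRF1 letters in 9 of 66 (13.6%). Those of the other members held them in 47 of 155 (30.3%) and 15 of 155 (9.68%). No test was made of these shares, and several starts of 1 gene are counted separately.

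Regulators and partners outside the symbol pattern were read from lists made by function. Of 11 regulators of mitochondrial biogenesis, 8 had an increased region and 7 of them at the promoter. Over all protein-coding genes these shares were 25.3% and 17.5%, and the list was not tested. Besides GABPA these were NRF1 (38.4 and 12 reads, log2 fold 1.36, FDR 9.50e-05), GABPB1 (0.82), YY1 (0.80), NFE2L2 (1.01), PPARGC1B (0.81 over its start) and TFAM, which packages mitochondrial DNA (0.85). PPARGC1A had 4 distal regions only, the largest fold being 1.41 at 548 kb from a start. ESRRA, PPRC1 and SP1 had none.

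Factors for mitochondrial DNA replication and transcription had an increased region at 7 of 16 genes, with TFAM counted in this list as well. Among them were POLG, the DNA polymerase (126 and 57.9 reads, log2 fold 1.03), and POLRMT, the RNA polymerase (0.65). Translation and ribosome assembly factors had 8 of 31, led by AURKAIP1, a mitoribosomal protein with another kind of name (68.1 and 20.6 reads, 1.52, FDR 2.03e-07). Respiratory chain genes outside the pattern had 17 of 37 increased, among them CYCS, cytochrome c (122 and 52.5 reads, 1.12), and SDHAF3, a complex II assembly factor (1.43). Decreased regions of that list were assigned to COA7 (−0.99) and COA8 (−0.97), neither at a promoter. Import genes outside the pattern had 11 of 22, all with a promoter region, including the chaperonin HSPD1 (1.59) and the import motor chaperone HSPA9 (0.85). Cristae genes had 4 of 12, OPA1 among them (0.67). The tricarboxylic acid cycle list, which includes the pyruvate dehydrogenase complex genes PDHA1 and PDHX, had 12 of 18. Its largest folds were at fumarase FH (98.3 and 35.9 reads, 1.30) and OGDH (1.24). PDHX also had a decreased intronic region (−1.0). On chromosome 7 lie NRF1, MTERF1, MALSU1, COA1, CYCS, SDHAF3, IMMP2L, PMPCB, CHCHD3, MDH2 and OGDH. Of all protein-coding genes there, 51.5% had an increased region. Their increased promoter regions had a median log2 fold of 1.01, beside 0.89 over all protein-coding genes. As background, 25.3% of protein-coding genes had an increased region, and no list was tested.

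Chromosome 7 holds 11 of the 211 members, and 6 of these had an increased region, beside 51.5% of all protein-coding genes there. They are NDUFA4, NDUFA5, NDUFB2, MRPL32, MRPS17 and MRPS33. Member promoter regions there had a median log2 fold of 0.99 over 5 regions, beside 1.01 for all protein-coding genes there. MRPL32 had intergenic regions only, 8.89 kb (log2 fold 0.92) and 49.2 kb (1.01) from its start, while its head-to-head neighbour PSMA2 had a promoter region (0.71). On chromosome 8, MRPL15 had 1 intergenic region, 134 kb away (17.9 and 7.11 reads, 0.93, FDR 0.0287). Off chromosome 7, 55 of 200 members (27.5%) had an increased region, beside 24% of protein-coding genes. The part of chromosome 7 in the result was not tested.

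In the share of genes listed, other housekeeping groups lay on both sides. Cytosolic ribosomal protein genes had an increased region at 39 of 85 (45.9%), with a median promoter fold of 0.78, and proteasome genes at 11 of 50 (22%), with 0.77. The mitochondrial genes, at 28.9% and 0.89, lie between them in share and above both in median promoter fold, and the differences were not tested. The lists hold changed regions only, so they give no check of cell identity or of the knockdown itself. Of 8 markers of this line and its progenitor stage, 5 had increased regions. Among other lineages these were 0 of 4 T cell, 1 of 4 B cell, 0 of 4 erythroid and 3 of 4 monocyte markers. At promoters the counts were 1 of 8 for this line, 1 of 4 for B cells and 1 of 4 for monocytes. The other listed markers carried regions away from promoters only. Across protein-coding genes as a whole, the comparable shares were 25.3% at any place and 17.5% at promoters. These few markers were not tested and show no lineage pattern by themselves.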

How the data were processed

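ATAC-seq regions of 4 control and 3 PHF19 knockdown libraries were taken from the authors' deposited lists. Per the file headers, the authors computed a p-value, an FDR, a log2 fold and log2 means, 1 for each group and 1 over both. How reads were normalised, shifted for the transposase and merged into regions is not given in the sources used here. MACS2 2.2.6, deepTools 1.5.12, Picard 2.2.4 and Bowtie2 2.4.1 appear in the submitters' processing notes without a stated role. Deposited log2 folds were closer to 0 than the difference of group means in all 8815 regions. The overall mean gave the knockdown column a median weight of 0.429, that of 3 of 7 libraries, and its direction matched the list names. The notes name hg38, yet 0.137% of matched gene starts equalled those of GRCh38, so coordinates are as deposited, read as hg19, and not checked against that genome. The number of tested regions, 52675, was inferred from FDR, rank and p-value.

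Group means were printed as 2 to the power of the deposited log2 value. Members were matched by gene ID to RefSeq genes of GRCh38.p14. The 3 genes renamed since, among them NDUFA4, kept their earlier symbols, genes of mitochondrial DNA were left out, and 327 pseudogenes with such symbols had no listed region. Assembly factors are counted with their complex. Named genes are the 3 with the largest absolute promoter fold per class, those with decreased regions, those with at least 3 regions, and the 5 largest with distal regions only. Genes named for their roles or as unlisted beyond these were chosen after their values were seen. Members and lists were chosen with earlier results of these data known. No test was made, since the lists hold no value per library. The values of 1 member are not reported here. Counting was tested on simulated data. Tables were made with pandas 2.3.3 and numpy 2.4.6, intervals with scipy 1.17.1 and plots with matplotlib 3.10.9, under Python 3.11.15.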

Additional observations from a re-analysis of the deposited data

How the results depend on the processing

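Alternatives were promoter regions only, regions within 1 kb of a start, an FDR of at most 0.01, an absolute log2 fold of at least 1, a mean of at least 10 reads, no chromosome 7, any gene type, structural subunits only and unshrunken folds. The count of members with an increased region, 61, fell to 36 at the stricter FDR (17.1%, beside 13.9% of all protein-coding genes) and to 23 at the stricter fold (10.9%, beside 11.3%), and lay between 55 and 61 under the other planned ones. The median log2 fold, 0.94 (95% binomial interval 0.88 to 0.99), was 1.09 at the stricter fold and 1.15 with unshrunken group means. The promoter share, 75% (Clopper-Pearson interval 64.1 to 84%), was 53.3% at the stricter fold, 89.2% with at least 10 reads and, by construction, 100% within 1 kb. Both intervals treat the 80 regions as independent, although they come from 61 genes and all passed the authors' threshold. They cover counting error at most and hold no spread between libraries. Of 29 named genes, the largest region of 20 passed the stricter FDR, of 19 the stricter fold and of 21 the read minimum, and all 29 kept their direction with unshrunken means. No paired analysis was possible because the lists hold no value per library. No replicate could be left out for the same reason.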
